A study of Mus musculus with 4 samples.

Results

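The genes described here are Crhr1, Crhr2, Oxtr and Avpr1a, which encode the receptors for corticotropin-releasing hormone (CRH), oxytocin and vasopressin. They are 4 of the 32285 genes in the deposited matrices and were taken by their symbols. RNA of single nuclei was measured in the paraventricular nucleus of the hypothalamus (PVN) of male C57Bl6 mice, aged 10 weeks on the sample labels and 10 to 12 weeks in the design text. Micropunched PVNs of 5 animals were pooled for each library. The groups were 2 libraries at zeitgeber time 8 (ZT8) and 2 at ZT20, where ZT counts hours from lights on, and no other treatment or allele is labelled.

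CRH, made by PVN neurons, starts the hormonal stress response through CRHR1 on pituitary cells, and it acts inside the brain through the same receptor. CRHR2 is the preferred receptor of urocortin 2 and urocortin 3. Both CRH receptors couple mainly to Gs and cyclic AMP. Oxytocin and vasopressin, the peptides of the magnocellular PVN neurons, act through OXTR and the V1a receptor (Avpr1a), which couple mainly to Gq, phospholipase C and calcium.

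On GENCODE release M21 of mm10, Crhr1 spans chromosome 11 from 104132855 to 104175523 on the plus strand, and Crhr2 spans chromosome 6 from 55090049 to 55133016 on the minus strand. Oxtr spans chromosome 6 from 112473683 to 112489943 on the minus strand, and Avpr1a spans chromosome 10 from 122448499 to 122453452 on the plus strand. No gene on the same strand overlapped any of them, and 1 gene on the other strand, Gm48877, overlapped Avpr1a. The 250 bases before the annotated start are shown for Crhr2, whose time difference was the largest of the 4, and for Oxtr, which held the clock-related E-box. They are from RefSeq on GRCm38.p6 (mm10), and lie at chr6:55133017-55133266 and chr6:112489826-112490075, read on the minus strand. Capitals mark motifs found on either strand. The RefSeq start of Oxtr lies inside the GENCODE span given above, so part of its window, with both motifs, is within the gene by that annotation.
Crhr2: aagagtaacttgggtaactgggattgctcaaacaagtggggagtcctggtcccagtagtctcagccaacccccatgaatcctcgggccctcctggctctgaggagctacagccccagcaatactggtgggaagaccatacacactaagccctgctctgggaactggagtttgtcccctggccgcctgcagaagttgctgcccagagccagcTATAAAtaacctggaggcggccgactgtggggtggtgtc
Oxtr: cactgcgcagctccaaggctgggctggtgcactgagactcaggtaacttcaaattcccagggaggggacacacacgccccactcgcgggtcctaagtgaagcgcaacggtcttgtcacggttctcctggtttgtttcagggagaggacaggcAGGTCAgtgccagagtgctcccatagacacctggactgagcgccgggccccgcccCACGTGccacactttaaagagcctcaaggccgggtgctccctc
The motifs searched were the E-box CACGTG, the cyclic AMP element core TGACGT, the nuclear receptor element AGGTCA and the TATA box TATAAA. Crhr2 held the TATA box 39 to 34 bases before its start, and so did Avpr1a at 137 to 132 bases. Oxtr held the E-box 43 to 38 bases before its RefSeq start and the nuclear receptor element at 98 to 93 bases, and Crhr1 held none of the 4 motifs. Of 32851 promoter windows of this length, 6.02% held the E-box, 6.47% the cyclic AMP core, 14.02% the nuclear receptor element and 12.4% the TATA box. A match is a description of the letters and not evidence of a bound site.

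After filtering, 28980 nuclei remained, between 6053 and 8667 per library, with median UMI counts (unique molecular identifiers) of 4366 and 5148 at ZT8 and 3437 and 2063 at ZT20. Class names stand for clusters that are like a cell type by their markers, and 12091 nuclei, most of them with few UMIs, belong to no named class. They were 31.0 and 32.9% of nuclei at ZT8 and 45.0 and 52.9% at ZT20, and the median mitochondrial share was 0.121 and 0.122% against 0.254 and 0.329%. The nuclei recovered at the 2 times differed in makeup. Sim1, a transcription factor that marks PVN neurons, was at 4.86 and 6.29 counts per 1000000 UMIs (CPM) in the neuron-like nuclei of ZT8 against 30.4 and 23.5 CPM at ZT20. Otp, another factor of these neurons, was at 0.389 and 0.432 CPM against 5.06 and 4.77 CPM. Neurons that passed the naming rule for the Sim1 type, clusters 22 and 50, are called PVN-like here. They numbered 6 and 14 at ZT8 against 124 and 108. Cluster 21, glutamatergic-like with Sim1 among its 10 leading genes, did not pass that rule and is not included. It had 27 and 18 nuclei at ZT8 against 84 and 80 at ZT20. Thalamic-like neurons were 15.2 and 15.7% of nuclei at ZT8 and 7.09 and 5.64% at ZT20. Of smooth muscle-like nuclei the ZT8 libraries held 88 and 84 and the ZT20 libraries 2 and 3, and of tanycyte-like nuclei 1 and 1 against 90 and 92. Between 10 and 25 barcodes were shared by any pair of libraries. Separate mice are not stated for the replicate libraries of a time, so a p-value here reflects the spread between libraries only, which may be technical. Time and the makeup of the punch cannot be told apart in sums over nuclei, where fewer cells of a type and less RNA per cell look alike.

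Among the ligands, the genes for CRH, urocortin, vasopressin and the CRH-binding protein had the smallest p in neuron-like nuclei, and all 4 were higher at ZT20. Avp, the vasopressin gene, was at 0.945 and 1.27 CPM at ZT8 and 27.8 and 33.6 CPM at ZT20 (log2 difference 4.71 ± 0.14 (SE), edgeR adjusted p 8.5e-12). Crhbp, which binds CRH and withholds it from receptors, was at 2.97 and 2.86 CPM at ZT8 and 6.91 and 6.48 CPM at ZT20 (log2 difference 1.14 ± 0.11 (SE), adjusted p 3.81e-08). Crh was at 2.47 and 1.99 CPM against 3.44 and 3.28 CPM (log2 difference 0.54 ± 0.15 (SE), adjusted p 0.00579). Ucn was counted with 1 and 0 UMIs in the ZT8 libraries against 50 and 59 in the ZT20 libraries (adjusted p 9.32e-09). In each of these 4 genes both ZT20 libraries lay above both ZT8 libraries, as for 44.6% of all genes tested. The 4 were named for their small p, so this separation adds no support.

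Of the 8 genes for ligands, binding protein and degrading enzyme, 7 were called higher and 1, Lnpep, was called lower, by 0.07 on the log2 scale. Lnpep is an aminopeptidase that cleaves oxytocin and vasopressin. Its libraries overlapped, at 153.1 and 155.5 CPM at ZT8 against 154.9 and 151.2 CPM at ZT20. The calls among all 19507 genes tested were 43.6%, and the median log2 difference was 1.68 for the 8 genes and 0.01 for all genes. The others called higher were Oxt (log2 3.35, edgeR adjusted p 0.0282), Ucn2 (log2 1.84, adjusted p 0.0137) and Ucn3 (log2 1.51, adjusted p 0.0176). Clusters that carry these genes differed in size between the times. Neuron cluster 22, led by Oxt, Avp and Sim1, had 4 and 10 nuclei from the ZT8 libraries against 101 and 88, with Avp at 556 CPM, Oxt at 1230 CPM and 54 Ucn UMIs. Crh was highest in cluster 15 (44.2 CPM in 223 nuclei), and Crhbp in cluster 20 (93.2 CPM in 209 nuclei). Oxt transcripts were also counted in types that do not make the peptide, at 143 CPM in astrocyte-like and 211 CPM in microglia-like nuclei. Oligodendrocyte-like nuclei, over all libraries, held Avp at 19.1, Crhbp at 4.35, Crh at 2.48 and Ucn at 1.76 CPM (17 Ucn UMIs). Microglia-like nuclei held Avp at 26.1 CPM and 0 Ucn UMIs. The part of such transcripts in the neuron-like values and calls of these genes was not tested. Nuclei were also drawn at random, in a single draw, so that every library had equal numbers from each neuron cluster. These 1441 nuclei per library are called matched nuclei here. In them 5 of the 6 members tested were still called higher (Avp, Ucn, Crhbp, Crh and Oxt), with 21.1% of all genes called. Lnpep was not called there (log2 -0.06, edgeR adjusted p 0.162).

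The receptors were counted sparsely. Over all nuclei there were 2119 UMIs of Crhr1, 408 of Crhr2, 495 of Oxtr and 201 of Avpr1a, and most nuclei with a UMI held only 1. Neuron-like nuclei carried 77.1% of the Crhr1, 65.9% of the Crhr2, 69.5% of the Oxtr and 59.2% of the Avpr1a UMIs, and nuclei of no named class carried 20.2 to 29.9%. A Crhr1 UMI was found in 12.1% of neuron-like nuclei (median 12992 UMIs per nucleus) and in 0.686% of oligodendrocyte-like nuclei (median 3037), which stand here for free RNA. For Crhr2 the shares were 2.00 and 0.343%, for Oxtr 2.95 and 0.274%, and for Avpr1a 1.07 and 0.274%. With every nucleus thinned to 2000 UMIs, in 10334 neuron-like and 2630 oligodendrocyte-like nuclei, they became 2.07 and 0.456% for Crhr1, 0.416 and 0.266% for Crhr2, 0.426 and 0.114% for Oxtr and 0.135 and 0.0760% for Avpr1a. In this thinning the neuron-like share was above the oligodendrocyte-like share for all 4, and for Crhr2, Oxtr and Avpr1a both shares rest on few nuclei. The CPM of all counts did not keep this order for Avpr1a. Its mean over libraries was 0.769 (SD 0.240) in neuron-like, 0.813 (SD 1.00) in oligodendrocyte-like and 1.03 (SD 0.58) in astrocyte-like nuclei. The neuron-like mean was above the oligodendrocyte-like mean for Crhr1, Oxtr and Crhr2, for Crhr2 within the spread (1.73, SD 0.99, against 1.11, SD 0.99).

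Crhr1 was higher in GABAergic-like and in non-thalamic glutamatergic-like neurons than in thalamic-like neurons. In glutamatergic-like neurons without the thalamic-like it stood at 12.1 and 13.5 CPM at ZT8 and 15.3 and 15.9 CPM at ZT20. In GABAergic-like neurons it stood at 13.8 and 13.6 CPM against 13.97 and 10.03 CPM, so these classes overlapped. Thalamic-like neurons had 6.11 and 5.53 CPM at ZT8 and 3.96 and 4.54 CPM at ZT20, below every library of the other 2 neuron classes. PVN-like neurons were near the thalamic-like level, at 8.32 CPM in the ZT8 library with at least 10 of them and 3.42 and 5.64 CPM at ZT20. Single thalamic-like clusters reached 13.2 CPM (cluster 9). Astrocyte-like nuclei had 0 to 3.64 CPM, and the 4 libraries together held 8 UMIs in 1641 astrocyte-like nuclei.

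Over 50 neuron clusters with at least 50 nuclei, the mean level of Crhr1 ran from 0 to 83.1 CPM with a median of 11.4 CPM. Cluster 48, a glutamatergic-like cluster led by Ebf1 and Gulp1, was highest at 83.1 ± 19.8 CPM (SD, n = 3 libraries with at least 10 nuclei), and 34 of its 52 nuclei held a Crhr1 UMI. Its lowest library, at 63.7 CPM, was above the highest library of the next cluster. Clusters 10 and 38 followed at 30.2 ± 6.2 and 29.3 ± 7.6 CPM (SD, n = 4 each), and their libraries overlapped, as did those of the fourth, cluster 20. Cluster 10 was led by Gm29478 and Adamtsl3, and cluster 38 by Erbb4 and Pbx3 with Slc18a2, the vesicular monoamine transporter, among its 10 leading genes. These 10 also include Bnc2 in cluster 38 and Htr2c in cluster 10, which are on the fibroblast and choroid plexus marker lists. Cluster 22 of the Oxt and Avp neurons was 33rd of the 50, with 14 Crhr1 UMIs in 203 nuclei.

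**Figure D1:**
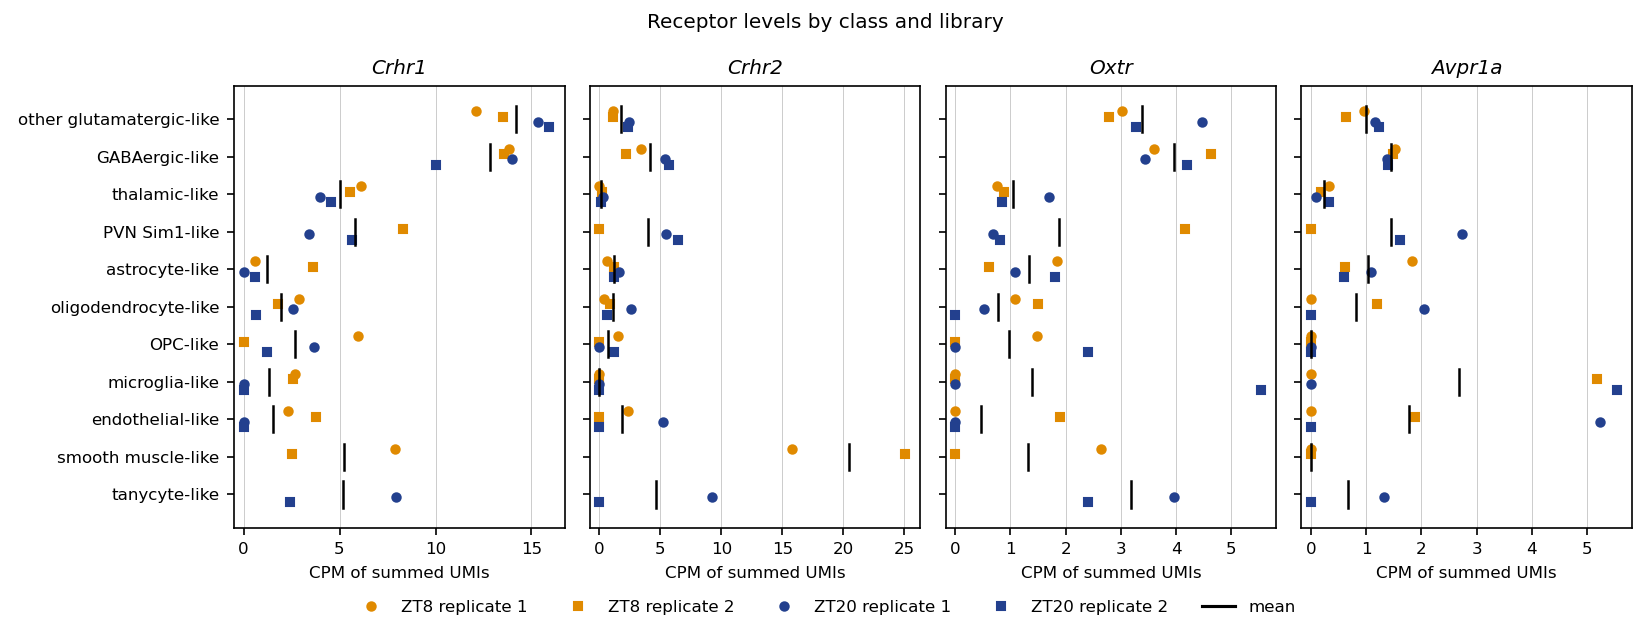
CPM of each receptor (x axes, 1 panel per gene, each with its own scale) in 11 classes (y axis), with 1 point per library that holds at least 10 nuclei of the class and a black bar for their mean. Crhr1 has its highest means in the GABAergic-like neurons and the glutamatergic-like neurons without the thalamic-like, and the highest Crhr2 points are the 2 ZT8 libraries of smooth muscle-like nuclei, at 15.8 and 25.1 CPM.

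Crhr2 was spread differently. GABAergic-like neurons held 3.40 and 2.15 CPM at ZT8 and 5.38 and 5.71 CPM at ZT20, and thalamic-like neurons 0 to 0.283 CPM, with 9 UMIs in 2979 nuclei. Other glutamatergic-like neurons had 1.10 and 1.14 CPM against 2.40 and 2.38 CPM, and at ZT20 both libraries were below those of the GABAergic-like neurons. Cluster 47 was highest at 34.4 ± 12.1 CPM (SD, n = 4), with 6, 5, 9 and 6 UMIs in the ZT8 and ZT20 libraries. It has no transmitter name and was led by Dach1, Il1rapl2 and Trpm3, with Htr2c, a serotonin receptor that is also on the list of choroid plexus markers, among its 10 leading genes. Its lowest library, at 25.7 CPM, was above all 4 libraries of cluster 6, a GABAergic-like cluster led by Trpc4 and Meis2 that was next at 11.4 ± 9.1 CPM (SD, n = 4). Cluster 37, also GABAergic-like, followed at 6.75 CPM with 7 UMIs and overlapped cluster 6. Of the 50 clusters, 13 had no Crhr2 UMI.

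Within the PVN-like neurons, most Crhr2 UMIs were in 1 cluster. Cluster 50, whose 10 leading genes include Trh, the thyrotropin-releasing hormone gene, and Sim1, held 13 Crhr2 UMIs in 11 of 49 nuclei (20.4 CPM, 95% exact Poisson interval 10.9 to 34.9) and none of Crhr1, Oxtr or Avpr1a. A count of 0 there allows up to 4.71 CPM (3 counts), and the Crhr1 level of cluster 22 was 5.88 CPM (interval 3.22 to 9.87). Cluster 22 held 3 Crhr2 UMIs in 203 nuclei (1.26 CPM, interval 0.260 to 3.68), together with 14 of Crhr1, 3 of Oxtr and 6 of Avpr1a. The 13 Crhr2 UMIs of cluster 50 were all from ZT20 libraries, 7 and 6. The intervals cover counting error only, and cluster 50 lies just under the 50 nuclei asked of the ranked clusters.

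Outside neurons, Crhr2 stood out in smooth muscle-like nuclei, defined by Acta2, Myh11 and other contractile genes. They held 6 and 10 Crhr2 UMIs at ZT8 (15.8 and 25.1 CPM) and 1 and 0 at ZT20, where only 2 and 3 such nuclei were found. Over all 177 nuclei the level was 21.7 CPM (95% exact Poisson interval 12.6 to 34.7), against 1.43 CPM (0.174 to 5.18) in endothelial-like nuclei and 1.18 CPM (0.508 to 2.32) in astrocyte-like nuclei. A Crhr2 UMI was found in 14 of the 177, or 7.91% (95% Clopper-Pearson interval 4.39 to 12.9%), at a median of only 1443 UMIs per nucleus. The same nuclei held 4 UMIs of Crhr1, 1 of Oxtr and 0 of Avpr1a. CRHR2 is known as a receptor of vascular smooth muscle, where urocortins relax vessels.

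**Figure D2:**
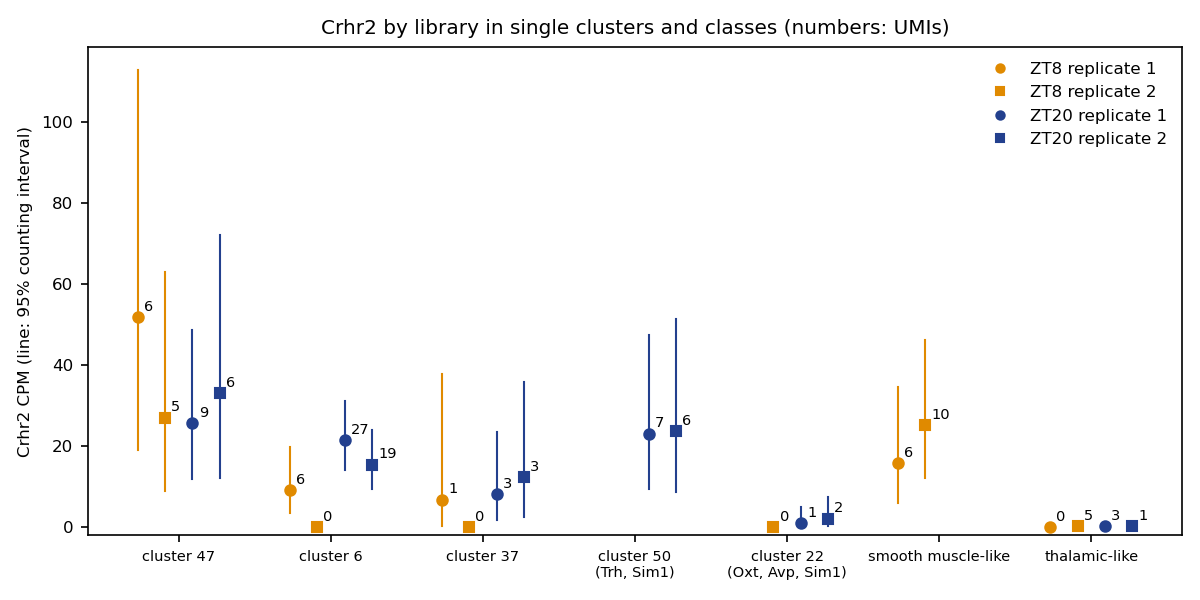
Crhr2 CPM (y axis) in 5 neuron clusters and 2 classes (x axis), with 1 point per library of at least 10 nuclei, its UMI count beside it and its 95% Poisson interval as a line where the count is above 0. Cluster 47 is present at both times at 25.7 to 51.8 CPM, cluster 6 is at 9.06 and 0 CPM at ZT8 and 21.3 and 15.4 CPM at ZT20, and smooth muscle-like nuclei are plotted at ZT8 only.

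Oxtr was counted in GABAergic-like neurons at 3.59 and 4.63 CPM at ZT8 and 3.43 and 4.199 CPM at ZT20. Glutamatergic-like neurons without the thalamic-like had 3.03 and 2.78 CPM against 4.48 and 3.28 CPM, overlapping the GABAergic-like values. In thalamic-like neurons as a class it was 0.763 and 0.882 CPM at ZT8 and 1.70 and 0.846 CPM at ZT20, below both other classes. The thalamic-like cluster 2 was an exception, at 4.63 and 4.38 CPM at ZT8 and 7.40 and 2.15 CPM at ZT20. These values rest on 9, 13, 11 and 3 UMIs. The highest cluster was 40, glutamatergic-like and led by Ebf1, with Ddc, which makes dopamine and serotonin from their precursors, among its leading genes. It stood at 15.4 ± 6.7 CPM (SD, n = 4). Cluster 36, GABAergic-like and led by Trhde, which degrades thyrotropin-releasing hormone, stood at 13.1 ± 7.0 CPM (SD, n = 4), with 3.80 and 11.6 CPM at ZT8 and 18.6 and 18.3 CPM at ZT20. These leading clusters did not differ beyond their spread, and cluster 28 followed at 6.23 CPM with 7 UMIs. In astrocyte-like nuclei there were 9 Oxtr UMIs in 1641 nuclei.

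Avpr1a was the least counted. GABAergic-like neurons held 1.51 and 1.49 CPM at ZT8 and 1.37 and 1.40 CPM at ZT20, glutamatergic-like neurons without the thalamic-like 0.963 and 0.632 CPM against 1.16 and 1.23 CPM, and thalamic-like neurons 0.0942 to 0.327 CPM. Cluster 30, GABAergic-like and led by Sox6 and Galntl6, was highest at 4.96 ± 1.45 CPM (SD, n = 2 libraries with at least 10 nuclei, both ZT8), with 16 UMIs in 166 nuclei. The same cluster held 14 UMIs of Crhr2 and 14 of Oxtr, and its nuclei numbered 65 and 90 at ZT8 but 6 and 5 at ZT20. Cluster 38 stood at 4.90 CPM with no UMI in either ZT8 library and 4 and 7 in those of ZT20, and cluster 43 at 4.72 CPM with 4 UMIs, so the order of the 3 is not resolved. Of the 50 clusters, 16 had no Avpr1a UMI and 35 had under 3. The sister receptors were hardly counted: neuron-like nuclei of the 4 libraries held 1, 0, 3 and 0 UMIs of Avpr1b, the V1b receptor of the pituitary, and 4, 1, 0 and 1 of Avpr2, the kidney V2 receptor.

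**Figure D3:**
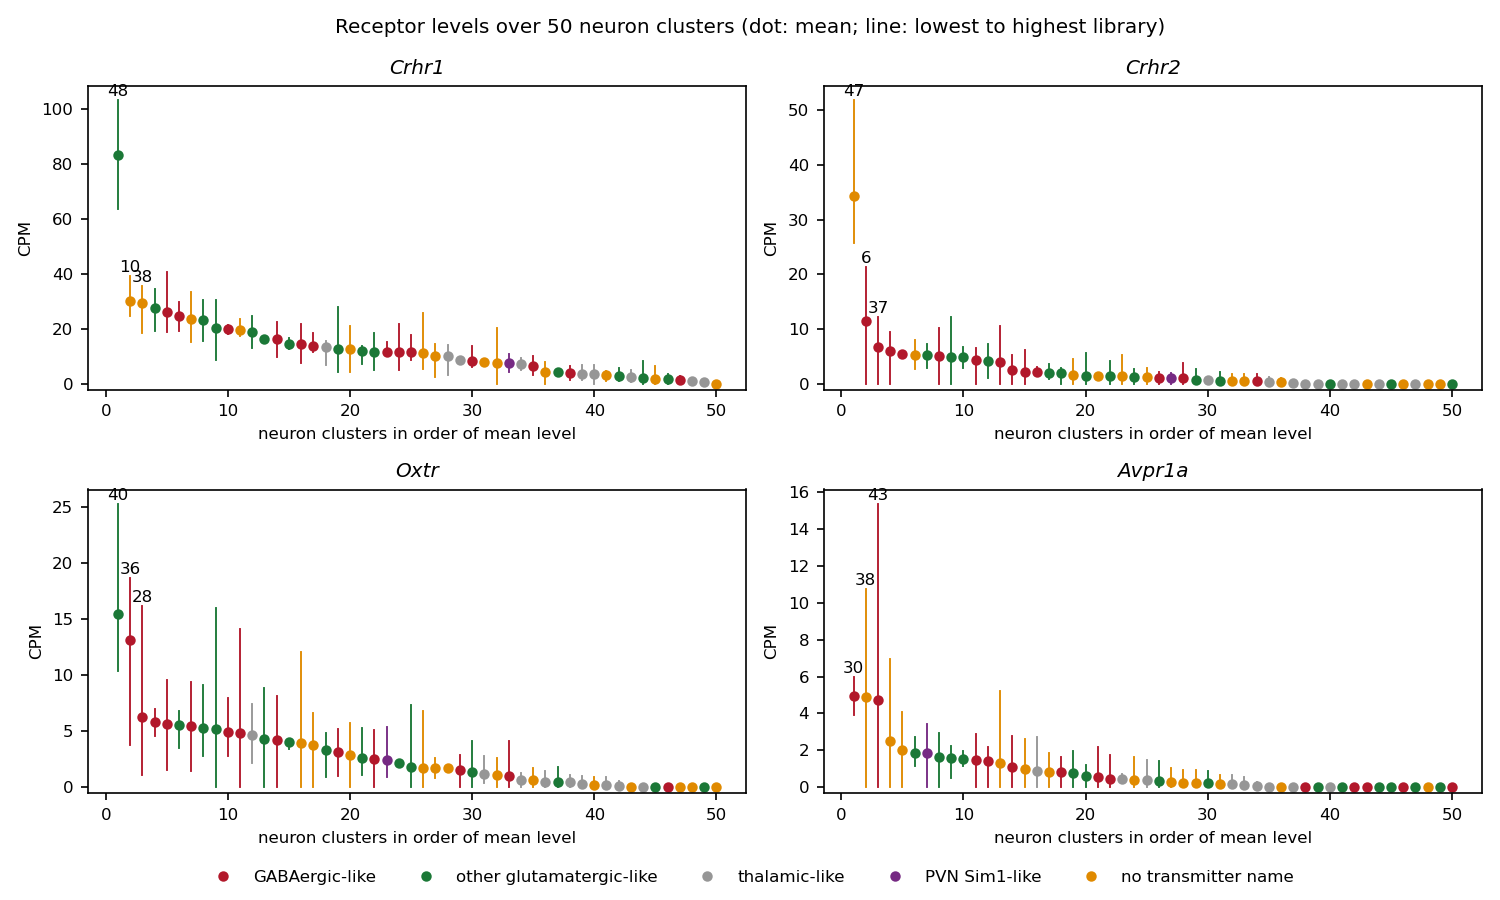
Mean CPM (y axes) of each receptor in 50 neuron clusters, ordered from high to low within each panel (x axes); lines run from the lowest to the highest library with at least 10 nuclei, colours give the class, and the first 3 clusters carry their numbers. Crhr1 and Crhr2 each have 1 cluster, 48 and 47, whose lowest library is above every library of the next cluster, and the libraries of the leading Oxtr and Avpr1a clusters overlap.

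Nuclei with UMIs of more than 1 receptor were few. Of 1248 neuron-like nuclei with Crhr1, 36 also held Crhr2 (2.88%, against 2.00% of all neuron-like nuclei), 51 held Oxtr (4.09 against 2.95%) and 20 held Avpr1a (1.60 against 1.07%). These nuclei had a median of 15038 UMIs against 12992 over all neuron-like nuclei. Of 207 nuclei with Crhr2, at a median of 12954 UMIs, 8 held Avpr1a (3.86 against 1.07%) and 6 held Oxtr (2.90 against 2.95%). Across 60 clusters and classes, the genes with the pattern most like Crhr1 were Col11a1 (Pearson r 0.669), Vwa5b2 (0.646), March11 (0.625) and Glra3 (0.621), from 16250 genes compared. For Crhr2 they were Atp2b4 (0.607), Slit2 (0.556), Pwwp3b (0.554) and Lrrc6 (0.55). For Oxtr they included Junb (0.547), Elfn1 (0.546) and Htr1a (0.545), and for Avpr1a they were Rptoros (0.541), Tigar (0.535), Ccdc93 (0.493) and Ubash3b (0.484). Between the receptors themselves r ran from -0.064 to 0.213. The points share libraries and depth, and with counts this sparse the values are only a description.

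Between the times, 3 of the 4 receptors, Crhr1, Crhr2 and Oxtr, were higher at ZT20 in neuron-like nuclei, where 21.9% of all genes tested were called higher. Both ZT20 libraries lay above both ZT8 libraries for all 4, as for 44.6% of genes. Crhr2 had the largest difference, from 0.945 and 0.817 CPM to 2.73 and 2.44 CPM, a 2.83-fold higher level (log2 1.502 ± 0.198 (SE), edgeR adjusted p 2.25e-06). Oxtr went from 1.83 and 1.78 CPM to 2.76 and 2.49 CPM, 1.40-fold (log2 0.49 ± 0.16 (SE), adjusted p 0.0194). Crhr1 went from 9.65 and 9.22 CPM to 12.0 and 11.2 CPM, 1.19-fold (log2 0.25 ± 0.08 (SE), adjusted p 0.0120). Avpr1a was at 0.639 and 0.528 CPM against 0.835 and 1.08 CPM and was not called (log2 0.66 ± 0.28 (SE), adjusted p 0.0663).

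In 39 neuron clusters with at least 10 nuclei in every library, Crhr1 was higher in both ZT20 libraries in 6 and lower in both in 9. Its mean was higher in 20 and lower in 19, and the count was not made over all genes. Only the Crhr2 call survived every alternative tried in neuron-like nuclei. In the matched nuclei, Crhr2 was at 1.12 and 0.607 CPM against 1.61 and 1.70 CPM (log2 0.96 ± 0.31 (SE), edgeR adjusted p 0.0179), where 21.1% of genes were called. These values rest on 24 and 14 Crhr2 UMIs at ZT8 against 36 and 38 at ZT20. The random draw was made only once, so whether the call holds in other draws was not tested. Crhr1 (log2 0.12 ± 0.10, adjusted p 0.449) and Oxtr (log2 0.34 ± 0.22, adjusted p 0.297) were no longer called. DESeq2, which called 26.1% of genes, did not call Crhr1 (adjusted p 0.163) or Oxtr (adjusted p 0.206). Without ZT8 replicate 2 or without ZT20 replicate 1 the same receptors lost their calls, with adjusted p of 0.0728 and 0.105 for Crhr1 and 0.0758 and 0.122 for Oxtr.

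Part of the Crhr2 transcripts at ZT20 came from neurons hardly present at ZT8. Neuron clusters with fewer than 10 nuclei in each ZT8 library, 10 in number, held 33 of the 108 Crhr2 UMIs of ZT20 replicate 1. In ZT20 replicate 2 they held 17 of the 93, against 0 and 0 at ZT8. The reverse was also found, in 4 clusters with fewer than 10 nuclei in each ZT20 library. They held 6 of the 34 Crhr2 UMIs of ZT8 replicate 1 and 9 of the 34 of ZT8 replicate 2, against 0 and 1 at ZT20. In the 44 clusters found at both times Crhr2 was at 0.812 and 0.631 CPM at ZT8 and 2.18 and 2.32 CPM at ZT20, although the shares of these clusters also differed. Cluster 6 held 6 and 0 Crhr2 UMIs in 68 and 40 nuclei at ZT8 and 27 and 19 in 104 and 104 nuclei at ZT20, so its libraries did not overlap. Cluster 47, with the highest level, was at 51.8 and 27.0 CPM at ZT8 and 25.7 and 33.1 CPM at ZT20, and its libraries did overlap. In cluster 1 the order was the opposite, on few counts. It held 4 and 3 Crhr2 UMIs at ZT8 (3.62 and 2.62 CPM) and 2 and 2 at ZT20 (0.974 and 0.891 CPM). Of 27 clusters with a Crhr2 UMI and at least 10 nuclei in every library, both ZT20 libraries were above both ZT8 libraries in 6 and below in 1. The mean was higher at ZT20 in 16 and lower in 11. With 2 libraries per time such separation can arise by order alone, and the count was not made over all genes. Crhr2 was tested in none of these clusters: 6 and 47 had fewer than 50 nuclei in a library, and in the 8 clusters with enough it did not pass the filter on low counts.

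By transmitter class, glutamatergic-like neurons carried calls for 3 receptors, with 40.2% of genes called there and 20.1% called higher. Crhr1 was at 7.81 and 7.67 CPM at ZT8 and 10.01 and 10.95 CPM at ZT20 (log2 0.38 ± 0.10 (SE), edgeR adjusted p 0.00465). Oxtr was at 1.41 and 1.39 CPM against 3.18 and 2.22 CPM (log2 0.89 ± 0.23 (SE), adjusted p 0.0031), and Crhr2 at 0.312 and 0.475 CPM against 1.41 and 1.39 CPM (log2 1.74 ± 0.34 (SE), adjusted p 0.000288). Without ZT20 replicate 2 the Crhr1 call was lost (adjusted p 0.0503), and without ZT20 replicate 1 the Oxtr call (adjusted p 0.103). Thalamic-like neurons were low in these receptors as a class. They made up 918 of 1476 and 1023 of 1580 glutamatergic-like nuclei at ZT8. At ZT20 they made up 549 of 1442 and 489 of 1376. Without them only Crhr2 was called (log2 1.07 ± 0.39 (SE), adjusted p 0.0409, with 23.6% of genes called and 11.9% called higher), and leaving out any 1 library took that call away at about the same difference (log2 1.05 to 1.10, adjusted p 0.15 to 0.158). Crhr1 was then at log2 0.27 ± 0.13 (adjusted p 0.149) and Oxtr at log2 0.41 ± 0.28 (adjusted p 0.322). Within thalamic-like neurons, where 16.7% of genes were called, Crhr1 was not called, with lower values at ZT20 (log2 -0.43 ± 0.19 (SE), adjusted p 0.115).

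In GABAergic-like neurons only Crhr2 was called, with 17.2% of genes called and 9.43% called higher (log2 1.01 ± 0.30 (SE), edgeR adjusted p 0.0147). The call was absent without ZT8 replicate 2 (log2 0.71), without ZT20 replicate 2 (log2 0.98) and with DESeq2 (adjusted p 0.303). The makeup of this class also differed between the times, and its part in the call was not tested. Cluster 3 had 43 and 52 nuclei at ZT8 against 179 and 177 at ZT20, and cluster 30 had 65 and 90 against 6 and 5. Crhr1 (log2 -0.18 ± 0.17), Oxtr (log2 -0.12 ± 0.29) and Avpr1a (log2 -0.11 ± 0.48) were not called, with adjusted p of 0.521, 0.846 and 0.915. The test of the difference itself, the class by time term of edgeR, called 11.8% of genes and none of the receptors. Glutamatergic-like minus GABAergic-like it was 0.57 ± 0.20 (SE) for Crhr1 (p 0.0072, adjusted p 0.0581) and 1.00 ± 0.39 for Oxtr (p 0.0129, adjusted p 0.0902). For Crhr2 it was 0.72 ± 0.51 (adjusted p 0.45) and for Avpr1a 0.95 ± 0.69 (adjusted p 0.472). The term for neuron-like minus astrocyte-like nuclei called 3.19% of genes and 0 of the 4 receptors, of which Crhr1 had an unadjusted p of 0.0158.

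Among the classes with enough nuclei, no receptor passed the filter on low counts in astrocyte-like, oligodendrocyte-like, oligodendrocyte precursor-like, microglia-like or endothelial-like nuclei. In the 8 neuron clusters with enough nuclei only Crhr1 passed that filter, in clusters 0, 1, 9 and 10, and it was called in none of the 4. Its log2 differences were 0.20, 0.41, -0.52 and 0.34 there, with adjusted p from 0.553 to 0.828, where 4.23, 1.08, 1.36 and 0.406% of genes were called. At an unadjusted p under the threshold of 0.05 the count was also 0 of 4.

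**Figure D4:**
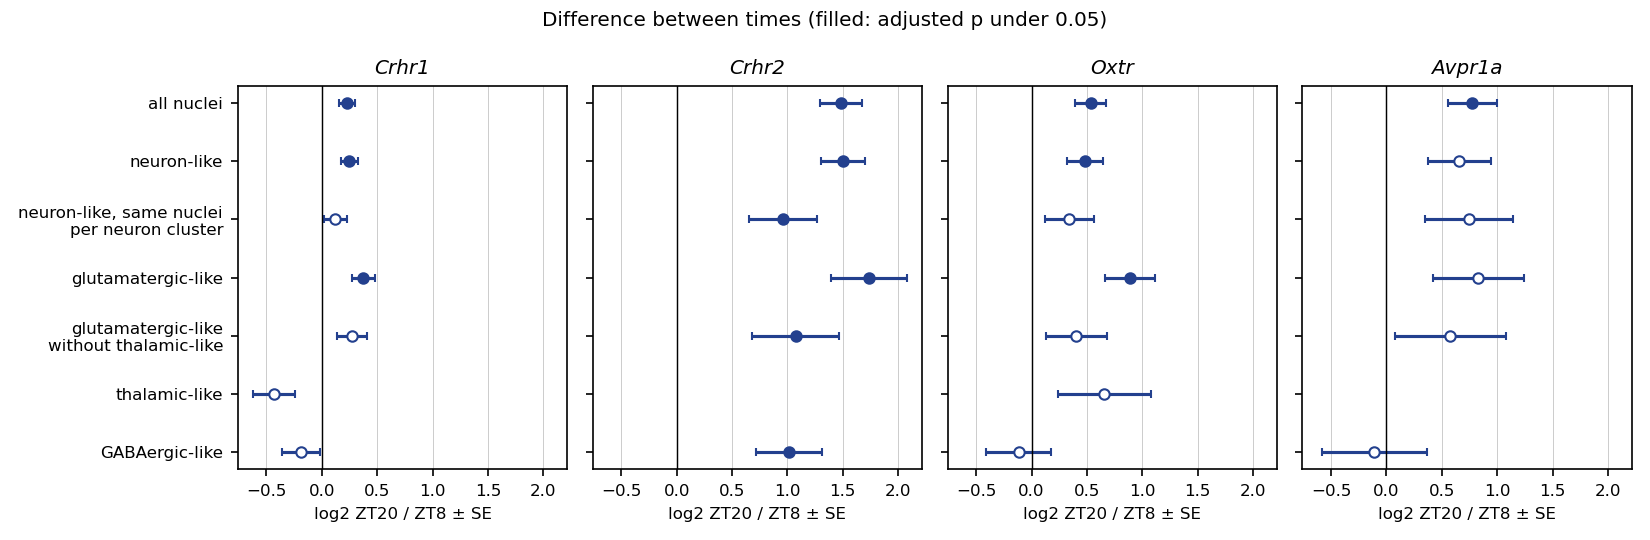
Log2 ratio of ZT20 over ZT8 with its SE (x axes) for each receptor (panels) in 7 sets of nuclei (y axis), from edgeR fits on sums per library; filled points have an adjusted p under 0.05, and an empty row is a receptor that was not tested. Crhr2 is filled in all 6 sets where it was tested, Crhr1 and Oxtr are filled in 3, and Avpr1a only in all nuclei.

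Summed over all nuclei, which include the unnamed nuclei whose share differed between the times, the 4 receptors were called higher at ZT20, with 47.7% of genes called and 24.3% called higher. Both ZT20 libraries were above both ZT8 libraries for each of the 4, as for 43% of genes. Avpr1a was at 0.592 and 0.689 CPM at ZT8 and 1.04 and 1.23 CPM at ZT20 (log2 0.78 ± 0.22 (SE), edgeR adjusted p 0.00527). Its call was lost without ZT20 replicate 2 (adjusted p 0.0513), with DESeq2 (adjusted p 0.0964, 31.4% of genes called) and in nuclei of named classes only (adjusted p 0.0543). Crhr2 was at 1.03 and 0.849 CPM against 3.13 and 2.23 CPM (log2 1.48 ± 0.19 (SE), adjusted p 8.79e-07), although the smooth muscle-like nuclei that carry it were at ZT8. Crhr1 (log2 0.23 ± 0.07, adjusted p 0.0124) and Oxtr (log2 0.53 ± 0.14, adjusted p 0.00261) were not called after oligodendrocyte-like, smooth muscle-like and thalamic-like nuclei were left out (adjusted p 0.135 and 0.0685), a choice made after seeing the data.

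Downstream of the receptors, the Gq and calcium arm and the Gs and cyclic AMP arm moved in both directions in neuron-like nuclei. Of 20 Gq and calcium genes, 5 were called higher and 9 lower, with a median log2 difference of -0.06, where 43.6% of all genes were called and 21.9% called higher. Prkca, a protein kinase C, went from 120.7 and 118.5 CPM to 177.05 and 187.7 CPM (log2 0.55 ± 0.03 (SE), edgeR adjusted p 8.75e-13). Plcb4, a phospholipase C, fell by 0.54 on the log2 scale, from 582 and 580.4 CPM to 427 and 406 CPM. Itpr1, an inositol trisphosphate receptor that releases calcium, fell by 0.43, and Rgs7, which speeds the turning off of G proteins, fell by 0.40. In the matched nuclei 3 of the 20 were called higher and 4 lower, with 21.1% of all genes called. Prkca, Plcb4 and Itpr1 were still called there, at log2 0.13, -0.09 and -0.10, and Rgs7 was not (log2 -0.04, adjusted p 0.218).

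Of 22 Gs and cyclic AMP genes tested, 8 were called higher and 4 lower in neuron-like nuclei (median log2 0.06), a share close to the 43.6% of all genes called. Gnas, the Gs alpha subunit, went from 454 and 453.6 CPM to 594 and 611 CPM (log2 0.35 ± 0.02 (SE), edgeR adjusted p 4.26e-12). Pde10a, which degrades cyclic nucleotides, rose by log2 0.25, and the adenylyl cyclases Adcy1 and Adcy8 fell by 0.46 and 0.30. In the matched nuclei 10 of the 22 were called higher and 0 lower. Of all 18028 genes tested there, 21.1% were called and 2035 were called higher. Gnas was at log2 0.15 and Pde10a at log2 0.48. Adcy8 turned to a called rise of 0.15 (edgeR adjusted p 4.59e-06), and Adcy1 was no longer called (log2 -0.05, adjusted p 0.44). Of 10 desensitization and trafficking genes, 3 were called higher and 2 lower (median log2 0.09), again a share near that of all genes. Arrb2, an arrestin that uncouples receptors, rose by log2 0.54 and Ramp1 by 0.66, while Grk3, a receptor kinase, fell by 0.51 and Ramp3 by 0.54. Ramp1 and Ramp3 are accessory proteins of calcitonin-family and other receptors of the same class as the CRH receptors. In the matched nuclei Arrb2 was at log2 0.28, Ramp1 at 0.45 and Grk3 at -0.27, each still called, and Ramp3 at 0.01 was not.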

How the data were processed

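For each of 4 libraries the deposited matrix gives unnormalized UMI counts, with genes by barcodes. Per the file headers they were made with Cell Ranger 7.0.0, and the submitters' processing notes name Cell Ranger, STAR 2.6 and mm10. The treatment of intronic reads and the calling of barcodes are not given in the sources used here. Per the labels' protocols, nuclei came from a sucrose gradient and libraries from the 10x 3' v3 kit.

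The filter kept nuclei with 500 or more genes and a mitochondrial share of 5% or less. Scrublet's own threshold marked 0 or 1 nuclei per library, so the highest scores were removed, at 0.8% per 1000 nuclei (326 to 702). Nuclei were clustered with scanpy 1.11.5 and leidenalg 0.10.2 on 3000 variable genes without the 4 receptors (40 components, 20 neighbours, resolution 1), and neurons again at resolution 3 into 59 clusters, of which 57 are neuron-like. Names needed a marker score of at least 0.7, 3 detected markers and leading genes that did not go against them; since these limits were chosen with the clusters in view, names may differ from the study's. UMIs were summed per library and class and tested with edgeR 4.0.16 in R 4.3.3 (filterByExpr, TMM, robust quasi-likelihood F test, two-sided, Benjamini-Hochberg over all genes tested), in sets with at least 50 nuclei in every library. The threshold for a call was an adjusted p of 0.05. CPM are counts per 1000000 UMIs of the set. With 2 libraries against 2, an exact permutation test could not reach that threshold. Replicate libraries differed by more than sampling noise (chi-square per gene of 1.63 in neuron-like nuclei at both times), so each counts as 1. Alternatives were DESeq2 1.42.0 and other scalings, filters, blocks, omissions and makeups of nuclei. The members and gene lists were chosen with earlier results of these data known. Genes were named by rule: the 4 receptors, up to 4 genes per list with the smallest p, the 4 genes most alike and the 3 highest clusters. One gene that this rule names for Oxtr is not reported here. Clusters 15, 20, 22 and 50 and the smooth muscle-like class were singled out after their values were seen, as were Lnpep, Oxt and the sister receptors.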

Additional observations from a re-analysis of the deposited data

How the results depend on the processing

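Crhr2 kept its direction and call in all 11 alternatives in neuron-like nuclei (log2 0.96 to 1.68) and in all 11 in all nuclei (1.21 to 1.71). In neuron-like nuclei the Crhr1 call was lost with DESeq2 (log2 0.24) and with the same nuclei per neuron cluster (0.12), and leaving out 1 library gave 0.20 to 0.30. The Oxtr call was lost with DESeq2 (0.48) and with the same nuclei per cluster (0.34), and leaving out 1 library gave 0.41 to 0.56. Avpr1a was called under none of the 11, and leaving out 1 library gave 0.47 to 0.83. In all nuclei, DESeq2 gave uncalled values of 0.22 for Crhr1, 0.53 for Oxtr and 0.78 for Avpr1a. Leaving out 1 library there gave 0.16 to 0.29 for Crhr1, with the call lost without ZT8 replicate 2 and without ZT20 replicate 1, and 0.65 to 0.89 for Avpr1a. Named classes only gave 0.62 for Avpr1a. Without oligodendrocyte-like, smooth muscle-like and thalamic-like nuclei, an alternative chosen after seeing the data, Crhr1 was at 0.16 and Oxtr at 0.35, both uncalled. The cause of these losses was not tested. Genes called fell from 8505 to 5088 with DESeq2 and to 3801 with the same nuclei per cluster in neuron-like nuclei, the latter with fewer nuclei, and from 10035 to 6613 with DESeq2 in all nuclei. Receptor calls by class and cluster numbered 5 of 18 tests, 1 with DESeq2 (Crhr2 in glutamatergic-like neurons) and 2 to 4 with 1 library left out. The sets of these tests overlap, so the 5 calls are not separate results. Glutamatergic-like neurons gave 3 of them, and the same neurons without the thalamic-like gave 1. Of all genes, 0.406 to 40.2% were called, depending on the set. The replicate block gave the same receptor calls, with Crhr1 at log2 0.24, Oxtr at 0.48 and 8823 genes called in neuron-like nuclei. Same-numbered libraries did not deviate together (r -0.02), so the numbers are not read as pairs. Stricter nucleus filters, DESeq2 size factors, no filter on low counts and, chosen after seeing the data, the omission of neuron clusters led by another class's marker changed no receptor call in these sets. Depth limits the order of the clusters for Avpr1a, with 119 UMIs in all neuron-like nuclei.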
